A study of Mus musculus with 9 samples.

Results

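The genes described here are the 2 that encode the histone variant H2A.Z in mouse, H2afz and H2afv, and 3 of the ANP32 family of acidic nuclear proteins, Anp32a, Anp32b and Anp32e. They are 5 of the 21938 protein-coding genes of the annotation used (GENCODE M21, mouse build mm10), and the rule that chose them uses their names. Their accessibility was read from peaks of ATAC-seq, in which the transposase Tn5 inserts sequencing adapters where DNA is not shielded by nucleosomes. A peak was taken for a gene when it lay within 1 kb of one of its transcription start sites (TSSs), or within the gene body and 10 kb on either side. Those windows held 17 of 84040 peaks in WT, 17 of 82567 in Anp32e null, 24 of 89272 in NT siRNA and 27 of 108409 in H2A.Z siRNA.

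All samples were primary mouse embryonic fibroblasts (MEFs) below passage 8. The groups were WT (3 libraries), Anp32e null (3 libraries), and the same null cells given a pool of siRNAs by transfection, either non-targeting (NT siRNA, 1 library) or against H2A.Z (H2A.Z siRNA, 2 libraries). Both siRNA groups therefore lack Anp32e, and no WT sample here was given an siRNA. The authors merged the libraries of a group and called 1 peak list from them, so each group has 1 value per gene, no spread between libraries can be given and no test between groups was possible. Transfection, the library number and any batch of preparation differ together between NT siRNA and Anp32e null and cannot be told apart. In a mixed culture, fewer cells with an open site and less opening per cell cannot be told apart either.

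H2A.Z replaces H2A in a share of nucleosomes, chiefly those that flank active promoters and enhancers. The SRCAP and p400-TIP60 remodelling complexes exchange it into nucleosomes, and ANP32E is a chaperone that binds the H2A.Z-H2B dimer and takes it out of chromatin. ANP32A and ANP32B share the leucine-rich repeats and acidic tail of the family and are known for histone binding, inhibition of histone acetylation and RNA transport, but not for a preference for H2A.Z. The accessible promoter of each gene is shown first, because the rank of its peak is the measurement that follows.

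The 200 bases that end just before the annotated 5′ end of each gene are printed in the direction of transcription, from RefSeq's promoter windows on build GRCm38.p6, in which all 5 genes were matched (H2afz and H2afv under their current symbols H2az1 and H2az2). Capitals mark CCAAT, the box bound by NF-Y, or its reverse complement ATTGG.
H2afz, chr3:137864287-137864486, plus strand: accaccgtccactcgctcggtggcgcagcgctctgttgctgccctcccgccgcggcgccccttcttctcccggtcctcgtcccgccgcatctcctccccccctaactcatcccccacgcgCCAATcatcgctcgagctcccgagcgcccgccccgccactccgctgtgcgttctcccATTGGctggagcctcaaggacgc
H2afv, chr11:6444444-6444643, minus strand: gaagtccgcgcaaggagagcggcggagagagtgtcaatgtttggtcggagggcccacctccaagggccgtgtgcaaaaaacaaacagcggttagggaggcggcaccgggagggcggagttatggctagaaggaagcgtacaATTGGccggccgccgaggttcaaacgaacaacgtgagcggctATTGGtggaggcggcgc
Anp32e, chr3:95929046-95929245, plus strand: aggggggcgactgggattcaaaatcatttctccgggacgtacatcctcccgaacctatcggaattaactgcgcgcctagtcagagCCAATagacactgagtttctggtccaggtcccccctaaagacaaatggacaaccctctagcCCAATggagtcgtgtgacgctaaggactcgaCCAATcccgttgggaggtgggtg
Anp32a, chr9:62341093-62341292, plus strand: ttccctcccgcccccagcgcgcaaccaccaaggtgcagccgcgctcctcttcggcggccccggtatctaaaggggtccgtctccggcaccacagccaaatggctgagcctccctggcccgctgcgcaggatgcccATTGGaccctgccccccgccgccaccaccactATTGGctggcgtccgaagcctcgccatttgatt
Anp32b, chr4:46450702-46450901, plus strand: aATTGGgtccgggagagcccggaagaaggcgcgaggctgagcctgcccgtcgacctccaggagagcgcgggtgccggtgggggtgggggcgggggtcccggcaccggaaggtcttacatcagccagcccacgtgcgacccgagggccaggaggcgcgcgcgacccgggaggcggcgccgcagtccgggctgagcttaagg

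CCAAT was found in all 5 promoters, 10 times in all, on either strand. It is present in 29.3% of 32851 RefSeq promoters cut to the same length. Anp32e had 3 copies, ending at -111, -50 and -19 from the 5′ end. H2afz, H2afv and Anp32a had 2 each, and in H2afz and H2afv the copies nearest the start ended at -19 and -13. Anp32b had 1, much farther out, at -199 to -195. The GC box GGGCGG (SP1) was in 4 of 5, Anp32e being without it, against 31% of promoters. TTTGAA, the cell cycle element CHR, was in Anp32e and H2afv, against 12.5%. CCGGAAG (ETS) and the E-box CACGTG were in Anp32b, where CCGGAAG occurred 2 times, against 6.29% and 5.26%. TATAAA (9.96% of promoters), TGACGTCA (CRE, 1.47%), TGANTCA (AP-1, 5.48%), GCGCATGCG (NRF1, 1.35%), AAGATGGCG (YY1, 0.499%), TTTNNCGC (E2F, 3.53%), GGAATG (TEAD, 10.1%) and TGTGGTT (RUNX, 3.49%) matched none of these windows. Matches were sought on both strands, no CCAAT copy overlapped another motif's match, and a match describes letters only, not a bound site. GC content was 71% in H2afz, 61.5% in H2afv, 54.5% in Anp32e, 68% in Anp32a and 74% in Anp32b, beside a median of 53% over all promoters.

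The 4 lists differed in depth. The most frequent background value in a list, the fragments MACS2 expected at a position by chance, was 8.85 in WT and 5.12 in Anp32e null, and it was 3.88 in the NT and 17.82 in the H2A.Z siRNA list, so the H2A.Z siRNA list was 4.59 times as deep as its control and WT was 1.73 times as deep as Anp32e null. The lowest summit that could be called over that background was 19, 13, 11 and 32 fragments in the same order. Ranks within a list were used because of this. The percentile of a peak is the share of peaks in its list at or below its fold enrichment, the ratio of summit fragments to local background that the authors deposited. Intervals beside percentiles are 95% exact Poisson intervals on the summit fragments, carried over to the rank, and cover counting error only. The interval of a rank difference between lists runs between the outer ends of both lists' intervals, so it is wider than a 95% interval. Against the labelled cell type, 9 of 10 fibroblast markers had a TSS peak in every list (Postn had none). Ptprc and Cd3e of blood cells had none in any list, but TSS peaks of endothelial (3 to 4 of 4 genes), epithelial (4 of 4), neural (1 to 3 of 4) and other blood genes (2 to 3 of 5 in all) were called too, so a called TSS peak alone does not mark a cell type here. The part of other cells in the values below was not tested.

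A TSS peak was called for all 5 genes in all 4 lists. Over protein-coding genes this share was 67.2% in WT, 66.7% in Anp32e null, 66.8% after NT and 68.4% after H2A.Z siRNA. The promoter peak of Anp32e was present in the 3 lists from Anp32e null cells, as it was in WT, so peak presence does not report on the deletion. The siRNAs act on mRNA, and the peaks of H2afz and H2afv were present after H2A.Z siRNA. The knockdown of neither H2A.Z gene can be checked by these lists.

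H2afv, which encodes the isoform H2A.Z.2, had the promoter of highest fold rank of the 5 in every list. Its peak was at percentile 97.4 in WT, 97.5 in Anp32e null, 97.3 after NT and 98.9 after H2A.Z siRNA. No interval of the fold rank reached that of the next gene in any list. Ranked by summit fragments, H2afv was at 96.2 in WT and 96.1 in Anp32e null, below H2afz (98.6 and 99.4), and at 98.7 after NT and 99.2 after H2A.Z siRNA, above it (97.7 and 98.5). The order by -log10 p-value turned in the same way, with 97.0 for H2afv in WT and in Anp32e null against 97.3 and 98.7 for H2afz. The summits held 279, 265, 574 and 2309 fragments at -107, -142, -172 and -77 bp from the 5′ end, in the same order of lists. The peak was 1201, 1139, 1221 and 1258 bp wide, and a single peak served both annotated transcripts. The gene lies on the minus strand at chr11:6427229-6444443.

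H2afz, which encodes the major isoform H2A.Z.1, was at percentile 86.2 (82.3 to 89.7) in WT and 81.7 (77.5 to 85.6) in Anp32e null. It was at 70.0 (65.5 to 74.5) in NT siRNA and at 72.8 (70.9 to 74.7) in H2A.Z siRNA. The WT and Anp32e null ranks thus lay above both siRNA ranks, with no overlap of the intervals between those pairs. By fragments alone the same summits were among the tallest of each list, with 379 in WT, 477 in Anp32e null, 491 after NT and 1958 after H2A.Z siRNA. Ranked by those fragments, the peak was at percentile 98.6, 99.4, 97.7 and 98.5. The 2 measures part at this gene because MACS2 divides by the larger of the genome background and the mean over a wider window around the peak. That local background was 4.75 times the genome background in WT, 9.26 times in Anp32e null, 12.0 times in NT siRNA and 11.9 times in H2A.Z siRNA. Of the TSS peaks of 13986 genes with one in every list, only 3.24%, 1.12%, 6.22% and 5.19% had a higher value.

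The H2afz window is crowded. The gene spans 2436 bp at chr3:137864487-137866922. An antisense transcript, Gm43403, starts 113 bp upstream of it on the other strand (coordinate 137864374), and the WT summit lay in the Gm43403 exon, at -165 bp. The summit was at the same base in Anp32e null and H2A.Z siRNA, and at -12 bp in NT siRNA. Reads from the 2 divergent starts cannot be told apart in ATAC-seq, which has no strand. A second peak within the first kilobases, in an intron, had its summit at 1246 bp in all 4 lists, with 163, 197, 174 and 931 fragments and percentiles of 47.0, 34.3, 15.6 and 40.2. Another covered the start of the neighbour Dnajb14, a DNAJ family co-chaperone gene whose TSS is 3188 bp downstream, with 120, 139, 181 and 729 fragments.

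**Figure D1:**
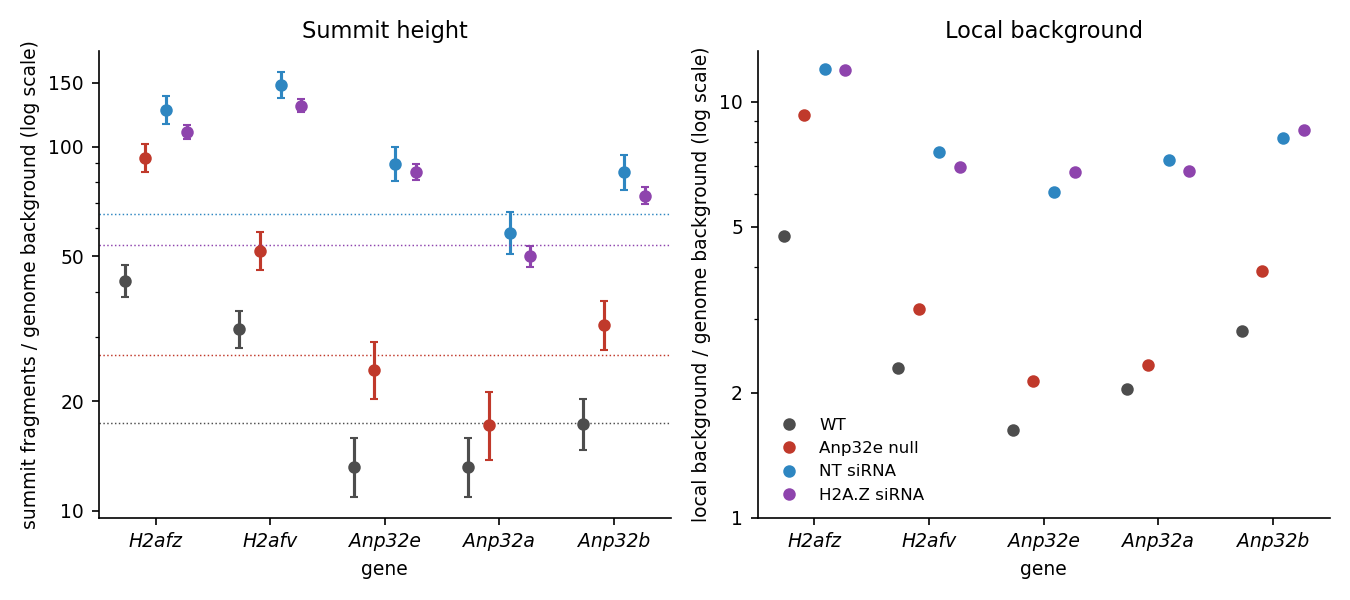
Left, summit fragments of the promoter peak divided by the genome background of its list (log scale), with 95% exact Poisson intervals; dotted lines are the medians over 13986 genes with a TSS peak in every list. Right, the local background at the same peaks divided by the genome background (log scale), where H2afz is the highest gene in each list, from 4.75 in WT to 12.0 in NT siRNA.

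Anp32e, the chaperone gene deleted in 3 of the 4 groups, was at percentile 80.8 (72.8 to 87.6) in WT. It was at 84.8 (76.4 to 91.8) in Anp32e null, 86.3 (81.1 to 91.2) in NT siRNA and 86.2 (84.1 to 88.3) in H2A.Z siRNA. These intervals all overlap. The summits held 117, 125, 349 and 1522 fragments, at -56, -61, -56 and -56 bp, so the position was the same within 5 bp. That base lies between the CCAAT copies printed above that end at -111 and -50, just before the second. The gene lies at chr3:95929246-95947390, and a weaker peak inside it, with its summit 1045 bp from the 5′ end in WT, had 54, 49 and 126 fragments in WT, Anp32e null and NT siRNA. In H2A.Z siRNA both were called as 1 peak of 2067 bp.

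Anp32a had 2 peaks of like height near its 5′ end. The first, at the annotated start, was at percentile 58.5 in WT, 56.2 in Anp32e null, 54.9 after NT and 59.8 after H2A.Z siRNA, with 84, 73, 225 and 808 fragments. The second, in an intron at further annotated starts, had its summit 1560 to 1786 bp in. It was at percentile 71.5, 64.4, 51.2 and 63.0, with 117, 88, 213 and 893 fragments. The second had the higher fold in 3 lists and the first in NT siRNA, and the peak of higher fold stands for the gene below. The gene spans 37520 bp at chr9:62341293-62378812 and has 10 annotated starts.

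Anp32b varied least of the 3 family members, at percentile 69.8 (61.9 to 76.8) in WT, 71.4 (63.5 to 78.6) in Anp32e null, 68.8 (63.2 to 74.1) in NT siRNA and 69.7 (67.3 to 72.0) in H2A.Z siRNA. Its peak was the widest of the 5 promoters in every list, from 2208 to 2439 bp, and held 153, 166, 330 and 1307 fragments. The summit lay 85 to 198 bp inside the gene (chr4:46450902-46472657), and the one of Anp32e null, 90 bp in, was in the 5′ UTR of its only annotated transcript. The 4 intervals overlap.

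**Figure D2:**
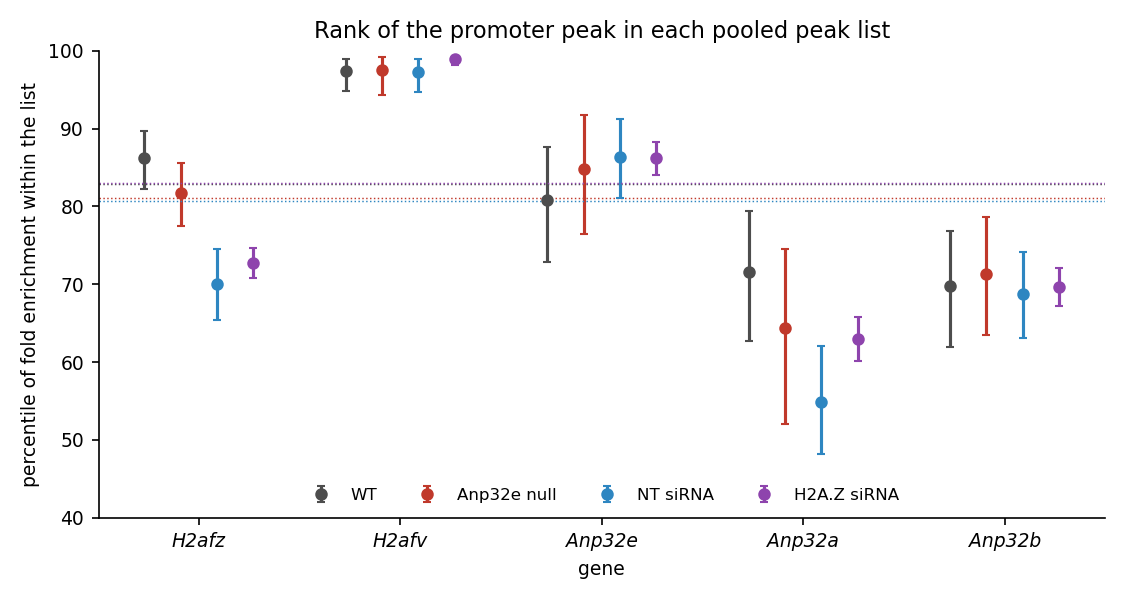
Percentile of the fold enrichment of the promoter peak within its list (vertical axis, from 40) for the 5 genes in the 4 lists; bars are 95% exact Poisson intervals on the summit fragments and dotted lines the median of 13986 genes with a TSS peak in every list. H2afv is at 97.3 or above throughout, and H2afz is at 70.0 and 72.8 in the siRNA lists, under both other lists.

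The order of the genes by fold rank in WT was H2afv, H2afz, Anp32e, Anp32a and Anp32b, and after H2afv each gene's interval overlapped the next. In Anp32e null it was H2afv, Anp32e, H2afz, Anp32b and Anp32a, again with overlaps after the first. In both siRNA lists the order was H2afv, Anp32e, H2afz, Anp32b and Anp32a, and only H2afz and Anp32b overlapped as neighbours. The median of the 13986 genes was at percentile 82.9 in WT, 81.1 in Anp32e null, 80.8 in the NT and 83.0 in the H2A.Z siRNA list. Anp32a and Anp32b were below this median in all 4 lists, H2afv was above it in all 4, and Anp32e was above it in the 3 lists from Anp32e null cells.

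The first comparison asks how the loss of Anp32e goes with accessibility at its own family and at its substrate's genes. No promoter moved by 10 percentile points or more between Anp32e null and WT. H2afv, at percentile 97.3 or above in every list, had no room to rise by that much in any comparison. Over 14317 genes with a TSS peak in both lists, 6.52% were higher and 11.1% lower by that much. The differences, Anp32e null minus WT, were 3.96 points for Anp32e, 1.58 for Anp32b, 0.069 for H2afv, -4.53 for H2afz and -7.10 for Anp32a. Each interval included 0, which with such wide intervals does not show that a rank was unchanged. The median of the 5 was 0.069 points and that of all genes -1.36. Of the 9 fibroblast markers measured in both lists, 3 were lower by 10 points or more in Anp32e null (Prrx1, Pdgfra and Vim, by differences of -24.1, -17.7 and -14.1) and 0 higher, with a median of -7.42. In the other marker lists 1 of 4 epithelial genes (Epcam, -23.6; list median 1.06) and 1 of 3 endothelial genes (Cdh5, -14.7; median -4.97) were lower, 1 of 2 blood genes was higher (Cd68, 13.5 points; median 10.4), and the 1 neural gene, Tubb3, was at -7.47. Their part in these values was not tested.

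Summit fragments over the genome background give a second view that leaves out the local background, and they were read relative to the median gene, which had a ratio of 1.56 between Anp32e null and WT. H2afz stood at 1.39 times the median gene's ratio (95% exact binomial interval 1.21 to 1.60). The other 4 had intervals that included 1, with 1.20 for Anp32b, 1.18 for Anp32e, 1.05 for H2afv and 0.831 for Anp32a. H2afz was thus higher in Anp32e null by summit fragments relative to the median gene. By fold rank its difference was -4.53 points with an interval of -12.2 to 3.33, so no direction was established on that measure.

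The second comparison asks how H2A.Z knockdown in Anp32e null cells goes with accessibility at these genes. As the peak of higher fold was taken for each gene, again no promoter moved by 10 points, whereas over 14559 genes 14.1% were higher and 2.56% lower. The differences, H2A.Z siRNA minus NT siRNA, were 8.01 points for Anp32a, 2.75 for H2afz, 1.60 for H2afv, 0.903 for Anp32b and -0.100 for Anp32e. Each of these wide intervals included 0. The Anp32a value compares different peaks, the intronic one in H2A.Z siRNA and the one at the annotated start in NT siRNA. The intronic peak by itself went from 51.2 to 63.0, which is past 10 points, and the peak nearest the start differed by 4.83 points. With only peaks of a -log10 q of 5 or more, Anp32a differed by 10.6 points. With lists cut to equal length, the differences were 1.47 for H2afv, 0.079 for Anp32a, -3.30 for Anp32e, -3.33 for H2afz and -6.05 for Anp32b, so the sign for H2afz and Anp32b depends on list length. The median of the 5 was 1.60 points and that of all genes 2.08. By summit fragments over background, the 5 were at 0.862 to 0.949 of NT siRNA and the median gene at 0.807. The interval lay under 1 for Anp32b, H2afz and H2afv and included 1 for Anp32e (0.845 to 1.07) and for Anp32a (0.746 to 1.005), whose ratio compares different peaks. Relative to it, Anp32e was at 1.18 (1.05 to 1.33), and the other 4 were at 1.07 to 1.09 with intervals that included 1. The genes that encode H2A.Z, H2afz and H2afv, were at 1.08 (0.974 to 1.19) and 1.09 (0.990 to 1.19). Among markers, 1 of 9 fibroblast genes was higher by 10 points in H2A.Z siRNA (Twist1, 16.7 points) and 0 lower, with a median of 8.98. Endothelial Pecam1 and Cdh5 were 29.6 and 28.2 points higher, 2 of 4 in their list, and Cd68 and Csf1r of blood cells, 2 of 2, 18.5 and 10.1 points. Of 4 epithelial genes Esrp1 was higher (18.5 points; list median 6.06), and of 2 neural genes Tubb3 was lower (-12.5). The part of these cells in the values was not tested.

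The third comparison sets the transfected control against untransfected Anp32e null cells, both of the same genotype. With the peak of higher fold taken for each gene, 1 promoter shifted past 10 points. H2afz was 11.7 points lower in NT siRNA, with a difference of -11.7 and an interval of -20.1 to -2.97. Over 14219 genes, 12.3% were lower and 13.5% higher by 10 points, beside 1 and 0 of the 5 here. With lists of equal length 2 passed, H2afz at -14.1 and Anp32a at -13.2. Epithelial Krt8, Cdh1 and Epcam were 40.2, 29.8 and 20.2 points higher in NT siRNA, 3 of 4 in their list, with a median of 25.0. Of 9 fibroblast markers, 4 were lower (Col1a2 at -17.9, Vim at -14.1, Fn1 at -13.3 and Twist1 at -12.8) and 1 was higher (Prrx1, 12.3 points), with a median of -4.66. Endothelial Cdh5 (14.1 points, 1 of 3) and neural Tubb3 (19.4 points, 1 of 2) were higher, and Csf1r of blood cells (-11.2, 1 of 2) was lower. Their part in the H2afz value was not tested. By fragments H2afz was 1.74 points lower, a difference of -1.74 in the rank of its summit, and by -log10 p-value the difference was -2.84. Relative to the median gene, whose ratio was 2.13, its summit was at 0.639 (0.562 to 0.726). The other 4 were at 1.73 for Anp32e, 1.59 for Anp32a, 1.34 for H2afv and 1.23 for Anp32b, each with an interval above 1. Not divided by the median gene, the ratio was 1.36 (1.195 to 1.54) for H2afz and 2.62 to 3.68 for the other 4. All 5 summits were thus higher over background in NT siRNA, and only H2afz rose by less than the median gene. By fold rank the others differed by 1.58 points for Anp32e, -0.178 for H2afv, -2.59 for Anp32b and -9.50 for Anp32a, and each interval included 0. For Anp32a, ranking by summit fragments gave 11.5 in place of -9.50, with a local background of 7.23 times the genome background in NT siRNA and 2.33 in Anp32e null. Different peaks stood for Anp32a in these lists. The peak at the annotated start was at 54.9 and 56.2, and the intronic one at 51.2 and 64.4. The Anp32e null list enters this comparison and the one with WT, and the NT siRNA list this one and the one with H2A.Z siRNA.

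**Figure D3:**
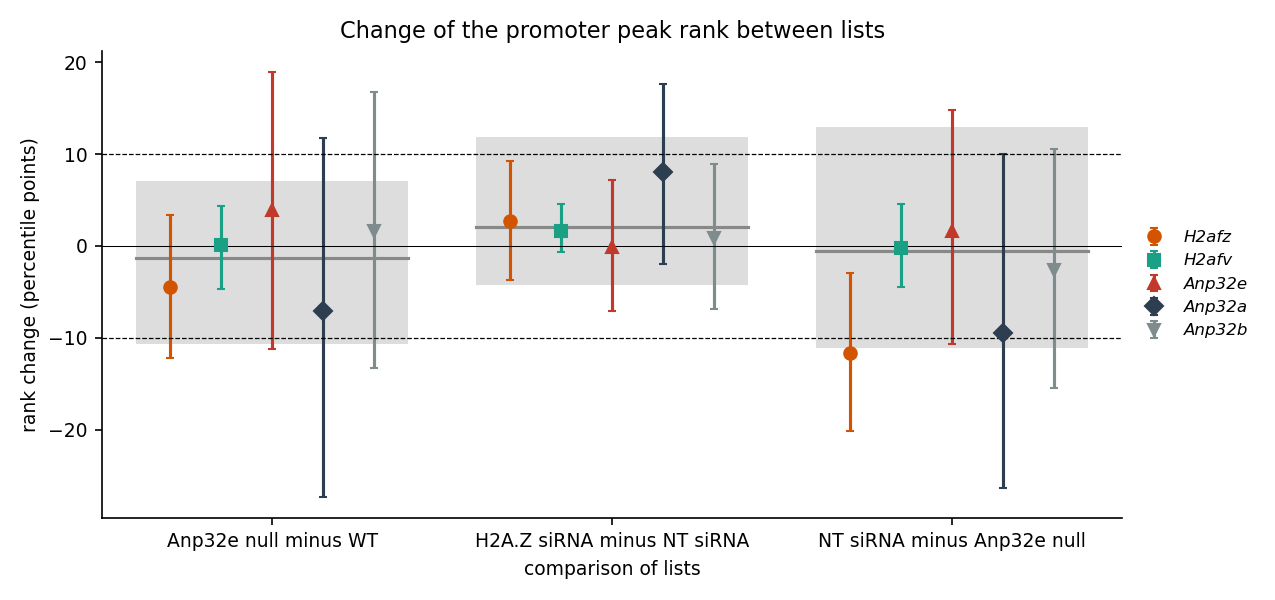
Difference in promoter percentile between lists for the 5 genes (symbols, with intervals between the outer ends of the 95% exact Poisson intervals of both summits) in 3 comparisons of lists. Grey boxes span the 10th to 90th percentile of all genes, grey lines are their medians and dashed lines mark 10 points; H2afz in NT siRNA against Anp32e null, at -11.7, is the only plotted symbol past them, and the values under other settings are given in the text.

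Widths were compared as ratios. Between Anp32e null and WT all 5 peaks were slightly narrower, at 0.892 to 0.994 of the WT width, with a median of 0.948 beside 0.981 over all genes. All 5 lay within the 10th to 90th percentile of all genes, 0.795 to 1.18. Anp32a was the lowest, with 1149 against 1288 bp, and H2afz the closest to equal, with 975 against 981 bp. Between H2A.Z siRNA and NT siRNA all 5 were wider, with a median ratio of 1.31 beside 1.14 over all genes. The 10th to 90th percentile of all genes ran from 1.02 to 1.70, so most genes were wider too. H2afv at 1.03 and Anp32b at 1.06 were close to equal, and H2afz was at 1.31, with 1093 against 832 bp. The ratio of 2.58 for Anp32e comes from the joined peak (2067 against 802 bp), and that of 3.20 for Anp32a from a different peak standing for the gene in each list (1382 against 432 bp). The H2A.Z siRNA list is the deepest of the 4, and a deeper pileup passes the calling threshold farther from its summit. The part of depth in these widths was not tested. Between NT siRNA and Anp32e null the ratios ran from 0.376 for Anp32a, again with another peak, to 1.07 for H2afv.

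Beyond the promoters, the gene windows of 197072 bp in all held 27 sites once overlapping peaks of the lists were merged. Peaks covered 7.54% of the windows in WT, 6.80% in Anp32e null, 8.83% after NT and 12.4% after H2A.Z siRNA. Of the 27 sites, 14 were called in all 4 lists (45.9% of 128522 merged sites genome-wide were), 6 in both siRNA lists alone (8.99%) and 3 in H2A.Z siRNA alone (13.9%). None of the 27 was called in WT alone or in Anp32e null alone, beside 6.94% and 2.95% of merged sites, and each was called in H2A.Z siRNA, beside 84.2%. Of sites within 1 kb of a TSS of any gene, 8 of 9 were in all 4 lists, against 68% of such sites genome-wide, and elsewhere 6 of 18, against 40.1%.

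**Figure D4:**
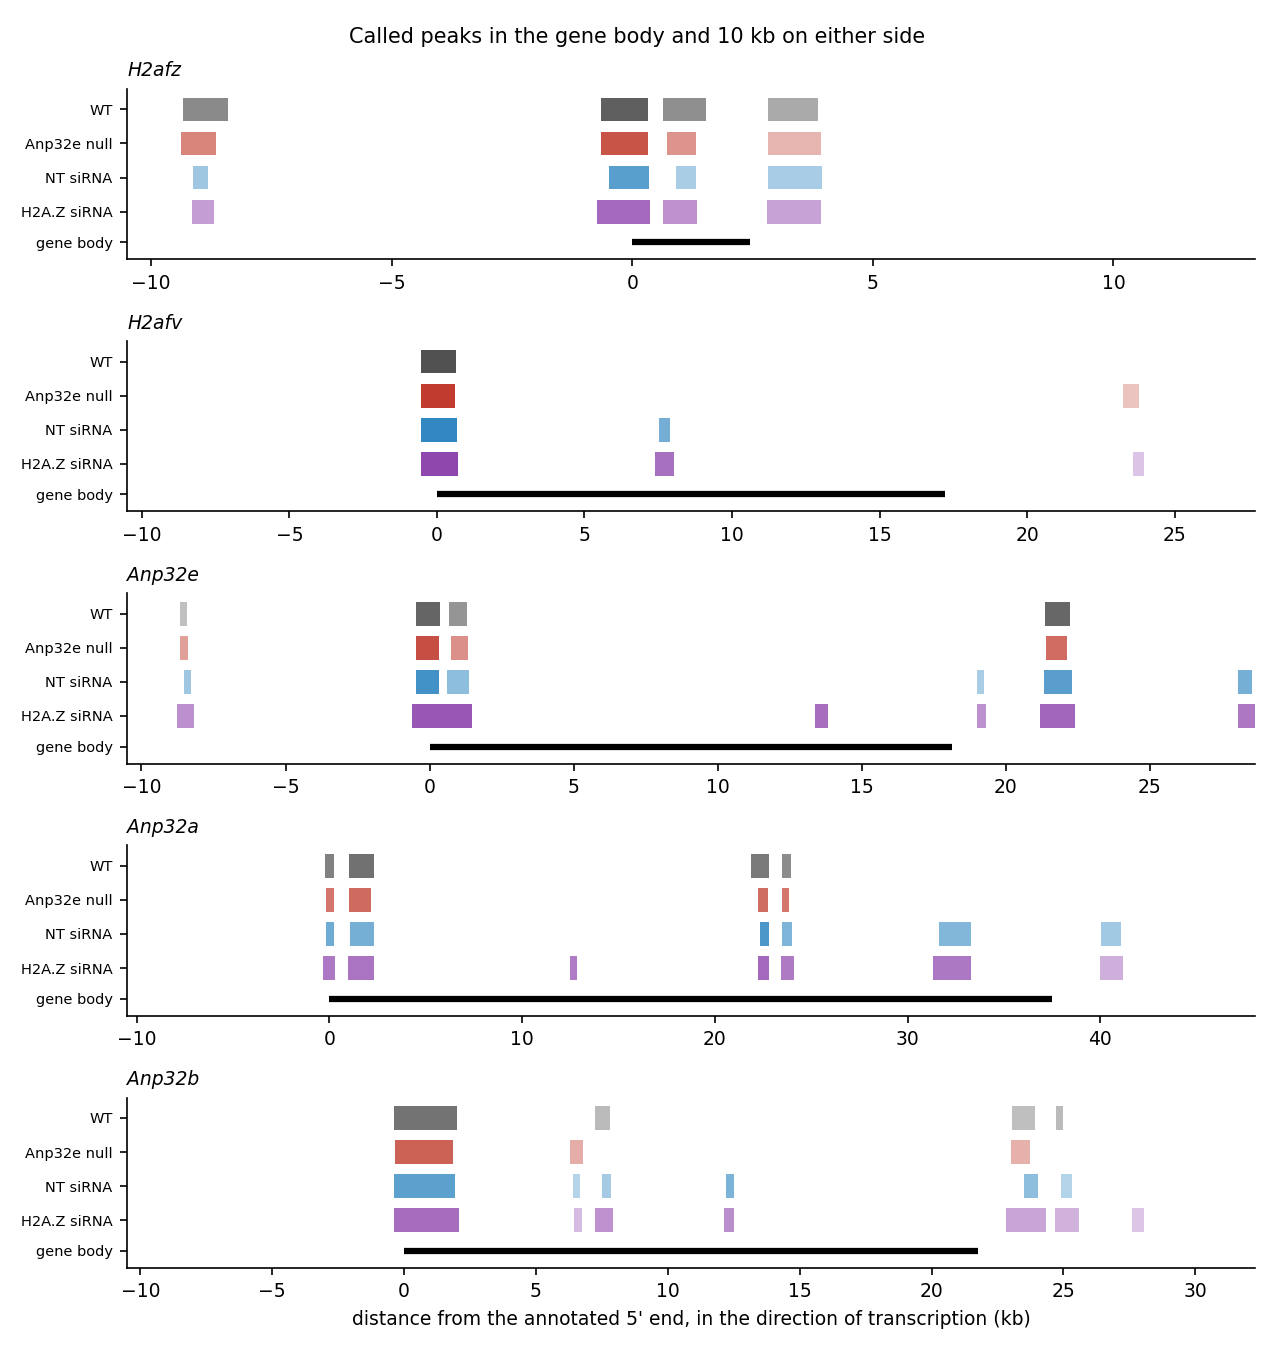
Called peaks (boxes, to scale) in each gene body and 10 kb on either side, by distance from the annotated 5′ end in kb along the direction of transcription; the black bar is the gene, and darker boxes have a higher percentile of fold. The H2afv window holds its promoter peak in all 4 lists an intronic peak in both siRNA lists and a peak past its 3′ end in Anp32e null and H2A.Z siRNA, while Anp32a and Anp32b hold the most peaks, 7 each in H2A.Z siRNA.

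The 6 sites called only in the siRNA lists lay at all genes but H2afz. In an intron of H2afv, 7785 bp from its start, the peak was at percentile 52.3 with 35 fragments in NT siRNA and at 66.2 in H2A.Z siRNA, its summits standing at 9.02 and 8.25 times the genome background. In an intron of Anp32b, 12429 bp in, it was at 46.5 and 43.7, with 34 and 108 fragments. In an intron of Anp32a, a site that covers an internal annotated start (coordinate 62373439) had a peak of 1612 bp at percentile 41.5 in NT siRNA, with its summit 33162 bp from the 5′ end, and of 2010 bp at 60.1 in H2A.Z siRNA, with its summit at 31785 bp, and a site past its 3′ end, at 40482 bp, was at 20.3 and 18.7. Downstream of Anp32e, sites 19200 and 28367 bp from its start were at 16.0 and 51.3 in NT siRNA and at 40.4 and 61.0 in H2A.Z siRNA. At each of these the NT siRNA summit, from 19 fragments up, passed the threshold in the shallowest list of the 4. The median summit over all peaks stood at 5.65 times the genome background in WT, 8.40 in Anp32e null, 13.9 after NT and 8.75 after H2A.Z siRNA, and the median TSS summit at 17.4, 26.8, 65.2 and 53.8 times. The part of these differences between lists in the calls was not tested.

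The 101 bases centred on the strongest summit of each of these 6 sites are shown in the direction of the gene's transcription, from GRCm38, with matches to the motifs named above in capitals where there were any. One more, CTCTNNTGG, part of the CTCF motif, was added after the sequences had been seen.
H2afv intron, 7785 bp in, chr11:6436608-6436708, minus strand: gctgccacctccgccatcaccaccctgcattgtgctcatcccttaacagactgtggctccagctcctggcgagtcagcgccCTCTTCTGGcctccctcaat
Anp32b intron, 12429 bp in, chr4:46463281-46463381, plus strand: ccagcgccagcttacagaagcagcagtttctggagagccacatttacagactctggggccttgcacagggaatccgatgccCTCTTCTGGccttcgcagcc
Anp32a intron, 31785 bp in, chr9:62373028-62373128, plus strand: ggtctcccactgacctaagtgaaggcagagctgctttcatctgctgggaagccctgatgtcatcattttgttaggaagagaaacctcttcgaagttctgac
Anp32a downstream, 40482 bp, chr9:62381725-62381825, plus strand: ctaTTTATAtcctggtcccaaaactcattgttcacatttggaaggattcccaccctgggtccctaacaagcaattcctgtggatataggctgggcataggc
Anp32e downstream, 19200 bp, chr3:95948396-95948496, plus strand: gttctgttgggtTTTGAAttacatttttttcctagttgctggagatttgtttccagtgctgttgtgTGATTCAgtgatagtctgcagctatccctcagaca
Anp32e downstream, 28367 bp, chr3:95957563-95957663, plus strand: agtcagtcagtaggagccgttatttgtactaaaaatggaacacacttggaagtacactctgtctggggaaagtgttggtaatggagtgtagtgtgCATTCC

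The intronic sites of H2afv and Anp32b both held CTCTTCTGG, 31 bases from the summit in each. CTCTNNTGG was within 100 bases of the summit in 7.59% of the 108409 H2A.Z siRNA peaks and in 3 of the 27 sites here. TGANTCA (AP-1) lay within the same 201 bases at 9 of the 27 sites and at 32% of all those peaks, so the gene windows are close to the genome-wide share. GGGCGG was at 7 of 27 against 11.2%, and CCAAT at 8 of 27 against 23.9%, with 8 of the 27 sites at the genes' own starts.

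The 3 sites called in H2A.Z siRNA alone were in introns of Anp32a (12667 bp in, percentile 57.4, 120 fragments) and Anp32e (13645 bp in, percentile 68.2, 154 fragments), and past the end of Anp32b (27703 bp, percentile 0.998, 53 fragments). When the H2A.Z siRNA pileups were thinned to the depth of NT siRNA, the probability of a call was 1 for the first 2 when rounded to 3 digits and 0.0968 for the last. These sites were picked for a call in H2A.Z siRNA alone, and thinning kept the enrichment of that list. The probabilities therefore cannot tell why NT siRNA had no call there, which was not tested. Among sites missing from 1 list only, an Anp32b intronic site at 7697 bp and one past its end at 25093 bp were called in all lists but Anp32e null, and an Anp32b intronic site at 6508 bp in all but WT. The 2 peaks in WT held 24 and 25 fragments, and the peak of Anp32e null 30. Thinned to the depth of NT siRNA, which is below that of Anp32e null, those WT peaks had probabilities of a call of 0.50 and 0.41. The peak of Anp32e null had a probability of 0.998 at that depth and was not called in the deeper WT list. No probability was taken at the depth of Anp32e null. These peaks too were picked for their call in the list that was thinned, and why the other list lacked them was not tested. A site 23868 bp from the H2afv start was called in Anp32e null and H2A.Z siRNA alone, at the low fold percentiles of 0.310 and 1.69. Its summits held 27 and 268 fragments, against list medians of 43 and 156, over local backgrounds of 2.46 and 8.28 times the genome background. At distal sites called throughout, Anp32a had 2 in an intron 22501 and 23752 bp in, the first of which ranked above the Anp32a promoter in both siRNA lists (80.0 and 72.8, against 54.9 and 63.0). By fragments it was lower than that promoter in both, with 183 against 225 and 549 against 893, over local backgrounds of 3.52 against 7.23 and 3.31 against 6.81 times the genome background. Upstream of H2afz, a site at -8944 bp was at percentile 51.4 in WT, 45.1 in Anp32e null, 22.9 after NT and 31.7 after H2A.Z siRNA, with 40, 29, 20 and 68 fragments. Past the end of Anp32b, a site at 23819 bp was at 8.40, 13.7, 33.9 and 25.3 in the same order, with 23, 18, 32 and 104 fragments. The Anp32e window had 1 site called in all lists on either side of the gene. Upstream, at -8415 bp, the percentiles were 7.33, 24.6, 22.9 and 41.8, with 22, 21, 20 and 84 fragments, so WT was the lowest list there. Downstream of Anp32e, a site 21733 bp from its start was at percentile 79.1 in WT, 62.9 in Anp32e null, 70.7 after NT and 74.2 after H2A.Z siRNA, WT being the highest by fold rank. Its summits held 74, 40, 77 and 317 fragments, at 8.36, 7.81, 19.85 and 17.79 times the genome background, where WT was not the highest.

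The wider H2A.Z pathway was read from 48 genes. They were 9 of the SRCAP complex, 12 of p400-TIP60, 12 of INO80, 8 histone chaperones, 4 other H2A variants and 3 H2A.Z readers. All 48 had a TSS peak in every list, beside 66.7% to 68.4% of protein-coding genes in a single list. Between Anp32e null and WT, 2 were higher by 10 points or more and 2 lower, beside 6.52% and 11.1% of all genes. The ATPase Ruvbl2 went from 69.0 to 79.2 and the acetyltransferase Kat5 from 51.9 to 62.2. Ino80b, an INO80 subunit, went from 38.3 to 5.60, on summits of 101 and 68 fragments, and the bromodomain gene Brd2 from 56.0 to 44.0. The median change was -1.81 points, beside -1.36 over all genes.

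Between H2A.Z siRNA and NT siRNA, 7 of the 48 were higher and 0 lower by 10 points, without a test and beside the 14.1% and 2.56% of all genes. They were Kat5 (12.2 points), the scaffold Trrap (10.6), Mcrs1 (12.4), the transcription factor Yy1 (11.1), the chaperone Set (13.5), the reader Pwwp2b (11.4) and the SRCAP subunit Vps72 (43.7). The Vps72 value compares different peaks, since a peak of 1309 fragments farther into the gene stands for it in H2A.Z siRNA only. The median was 2.62 points beside 2.08 over all genes. Between NT siRNA and Anp32e null, 0 were higher and 3 lower, beside 13.5% and 12.3% of all genes. They were Nasp, a chaperone of H3-H4 (57.5 against 85.1), Yy1 (71.3 against 82.1) and Vps72 (53.1 against 63.3). In the order of Anp32e null minus WT, H2A.Z siRNA minus NT siRNA and NT siRNA minus Anp32e null, the list medians were -1.24, 2.06 and -0.119 points for SRCAP and -1.91, 0.785 and -1.70 for p400-TIP60. They were -0.319, 4.89 and -3.53 for INO80 and -4.43, 5.89 and -2.60 for the histone chaperones. The 4 other H2A variants had -0.790, 2.64 and -3.49, and the 3 H2A.Z readers -7.68, 5.92 and -0.254. The -7.68 is the value of Pwwp2b and compares different peaks, since peaks that do not overlap stand for it in WT and Anp32e null.

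The genes whose promoter percentiles were most like each member's over the 4 lists, by the smallest summed difference among 13986 genes, included Ppie and Cenpi for H2afv (0.724 and 1.03 points in all), Ctdp1, Sept2 and St7l for H2afz (3.16 to 4.37), Arhgef1, Pdpk1 and Jpt1 for Anp32e (2.05 to 2.77), Zmym2, Scml4 and Ankrd13a for Anp32a (3.69 to 4.20), and Lhx2 and Arfgef2 for Anp32b (2.15 and 2.36). Neither H2A.Z gene was among the nearest to the other, and no ANP32 gene was among the nearest to another.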

How the data were processed

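ATAC-seq of 9 libraries in 4 groups was used as 4 peak lists. Per the study's methods and the labels, the authors used Bowtie2 2.3.4.1 for alignment (mm10), Picard 2.18.23 to drop duplicates and MACS2 2.1.4 to call peaks on the merged libraries of a group. The deposited fold enrichment is the ratio of the summit pileup and the local background, 1 having been added to each. The deposited -log10 p-values and -log10 q-values are those of MACS2.

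Peaks on chromosomes 1 to 19, X and Y were kept. Fold and -log10 p-value were solved together for the summit fragments and local background. All pileups came out within 0.05 of a whole number, and the solver was tested on simulated data. A gene's TSS peak is the peak of highest fold within 1 kb of any of its starts (GENCODE M21, GRCm38). A rank difference was called at 10 percentile points, with no test. Named genes were the 5 members, every site of their windows, pathway genes past 10 points, and the 3 most similar genes of each, of which 2 are not reported here. The members, gene lists and thresholds were chosen with earlier results of these data known. No artefact regions were masked. Alternatives covered the peak threshold, list length, windows, ranking measure, merging and depth. Python 3.11.15, NumPy, SciPy and pandas were used.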

Additional observations from a re-analysis of the deposited data

How the results depend on the processing

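No paired analysis was possible because the libraries of a group were merged into 1 list before peaks were called, and for the same reason no replicate could be left out in turn. Of 66 alternative values for the main results, 55 stayed within their limits (1.5 times a count, the counting interval of a median rank difference, equal width ratios to 3 digits). With the 20000 peaks of highest fold alone, TSS peaks remained for 3 genes in WT and in Anp32e null (Anp32a and Anp32b lost theirs) and for 2 in either siRNA list (H2afz lost its own too), and the gene windows held 4, 3, 3 and 2 peaks. With widths summed over all peaks in the TSS window, the median ratios were 0.925 for Anp32e null over WT, 1.22 for H2A.Z siRNA over NT siRNA and 1.07 for NT siRNA over Anp32e null. The median rank difference of H2A.Z siRNA minus NT siRNA was -3.30 with lists of equal length, and that of NT siRNA minus Anp32e null was 4.50 when ranked by -log10 p and 3.48 by summit fragments, a measure added after seeing the data. Neither median difference keeps its sign, and their main values were 1.60 and -2.59. Of 90 alternative values for single genes, 87 stayed within their interval. The other 3 were H2afz in NT siRNA minus Anp32e null, at -2.84 by -log10 p and -1.74 by summit fragments, and Anp32a in the same comparison, at 11.5 by summit fragments. In 7 of the 90, the gene was at 10 points or more, namely that Anp32a value, Anp32a at -13.2 with lists of equal length, H2afz at -11.4 to -14.1 under 4 alternatives of the same comparison, and Anp32a at 10.6 in H2A.Z siRNA minus NT siRNA with peaks of a -log10 q of 5 or more. The sign differed from the main value in 14 of the 90, among them H2afz and Anp32b in H2A.Z siRNA minus NT siRNA with lists of equal length (-3.33 and -6.05), H2afz in Anp32e null minus WT by -log10 p (1.38), and Anp32b and Anp32a in NT siRNA minus Anp32e null by -log10 p (4.50 and 9.70). The causes were not tested. NT siRNA was the shallowest list, where the lowest callable summit was 11 fragments, and no value here carries the spread between cultures.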
